A study of Mus musculus with 28 samples.

Results

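Odorant receptor genes outside clusters were taken as the mouse genes and pseudogenes with an Olfr symbol on chromosomes 1 to 19 and X that stand alone or as a pair, with a gap of more than 300 kb to the next such gene (mm10, RefSeq records of assembly GRCm38.p6). There were 35 of them among 1427 receptor genes and pseudogenes, 25 of them single and 10 in 5 pairs. The other 1392 lay in 43 clusters, that is runs of 3 or more. The choice used gene positions only and no measured binding.

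Odorant receptors are G protein-coupled receptors, and a mature olfactory sensory neuron of the nose expresses a single receptor gene of the family from a single allele. Most receptor genes sit in long arrays that are packed in heterochromatin and served by enhancers bound by the LIM-homeodomain factor Lhx2 and by Ebf factors, with the cofactor Ldb1, which has no DNA-binding domain and joins LIM-homeodomain proteins into larger complexes. CTCF is a zinc-finger protein that binds DNA at domain boundaries, and Rad21 belongs to cohesin, the ring-shaped complex which CTCF can halt on chromatin.

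The study mapped these proteins by chromatin immunoprecipitation and sequencing (ChIP-seq) of fixed, sorted mouse neurons, and a peak list of the authors was used for each of 11 libraries. Anti-Ldb1 was used on Lhx2 KO mature neurons (OMP-IRES-Cre with Lhx2fl/fl and the reporter allele Rosa-CAG-tdtom+/fl; 2 libraries), on cells sorted for the receptor Olfr1507 (M28-IRES-GFP; 2 libraries) and on control mature neurons (OMP-IRES-GFP; 3 libraries). Anti-CTCF and anti-Rad21 were used on control neurons of the same genotype (2 libraries each). In the Lhx2 KO the Cre is driven from the Omp locus, so Lhx2 is deleted in neurons that already express this gene of mature cells. The labels used here give no ages, and do not tie libraries to animals, and p-values therefore cover the spread between these libraries alone, a spread that may be technical. The RNA samples were not analysed here, so neither the loss of Lhx2 nor the cell identity was checked.

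The lists differed in length. They held 4290 and 542 peaks in Lhx2 KO, 5095 and 21250 in Olfr1507 cells, and 24874, 28874 and 16066 for control Ldb1, with 27599 and 34191 for CTCF and 10486 and 28149 for Rad21. The reads behind them are unknown, so how often a peak is found near a gene depends on list length as well as on binding. A region below is a set of overlapping peaks found in at least 2 libraries of a group. All distances run from the gene body to the peak.

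By annotation, the receptor genes outside clusters were 18 protein-coding genes and 17 pseudogenes. The pseudogene share was 48.6%, against 21.6% of clustered receptor genes. They were spread over 15 chromosomes, with 5 on chromosome 3, where they were all 5 receptor genes, and 4 each on chromosomes 6, 7 and 14. Chromosome 2, with 377 receptor genes, held none. The distance to the next receptor gene had a median of 2612 kb outside clusters and 10.6 kb in clusters. Protein-coding genes of other families were closer: outside clusters the median gene had 2 within 100 kb (range 0 to 10), against 0 for clustered genes. No such neighbour was present for 8 of the 35 genes outside clusters (22.9%), against 62.5% of clustered genes and 9.3% of the 86 first and last genes of the clusters.

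A peak of some library lay over 0 of the 35 receptor genes outside clusters, against 0.718% of clustered genes, 3.49% of the first and last genes of clusters and 60.5% of 21523 protein-coding genes of all kinds. With 35 genes, a count of 0 cannot be told apart from the share in clusters. A peak of some library was found within 10, 50 and 100 kb of 9, 23 and 29 of the 35 genes (25.7%, 65.7% and 82.9%). The same shares were 10.2%, 32.5% and 49.6% of clustered genes, 41.9%, 79.1% and 90.7% of cluster ends and 76.1%, 87.2% and 91% of all protein-coding genes. Control Ldb1 regions lay within 10, 50 and 100 kb of 5, 16 and 20 of the 35 genes (14.3%, 45.7% and 57.1%). The matching shares were 5.75%, 19.9% and 32.9% of clustered receptor genes, 20.9%, 53.5% and 66.3% of first and last genes of clusters, and 40.1%, 63.2% and 76.2% of all protein-coding genes. The 35 genes therefore stood above clustered genes as a whole and below both the cluster ends and protein-coding genes in general. The 95% Wilson interval of the share at 50 kb ran from 30.5% to 61.8% and covers counting error over genes only.

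CTCF regions lay within 10, 50 and 100 kb of 4, 16 and 25 genes outside clusters (11.4%, 45.7% and 71.4%), against 3.38%, 12.7% and 22.8% of clustered genes, 20.9%, 48.8% and 74.4% of cluster ends and 57.2%, 78.9% and 85% of all protein-coding genes. Rad21 regions lay within these distances of 2, 6 and 13 genes outside clusters (5.71%, 17.1% and 37.1%), against 1.15%, 5.32% and 11% of clustered genes, 9.3%, 25.6% and 50% of cluster ends and 32%, 57.4% and 69.2% of all protein-coding genes. The order of the 4 gene sets was the same for all 3 proteins at all 3 distances. Median distances to the nearest region followed it too. For control Ldb1 they were 66.1 kb outside clusters, 198 kb in clusters, 38.8 kb at cluster ends and 22.9 kb over all protein-coding genes, for CTCF 58.8, 317, 52.6 and 5.37 kb, and for Rad21 199, 500, 101 and 33.6 kb. The genes of odorant signalling themselves (20 listed, such as the G protein subunit gene Gnal, the cyclase gene Adcy3 and the channel gene Cnga2) had a control Ldb1 region within 10 kb in 20 of 20 cases, a CTCF region in 18 and a Rad21 region in 16. Among all protein-coding genes these shares were 40.1%, 57.2% and 32%. The list of 20 was chosen with earlier results of these data known.

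**Figure D1:**
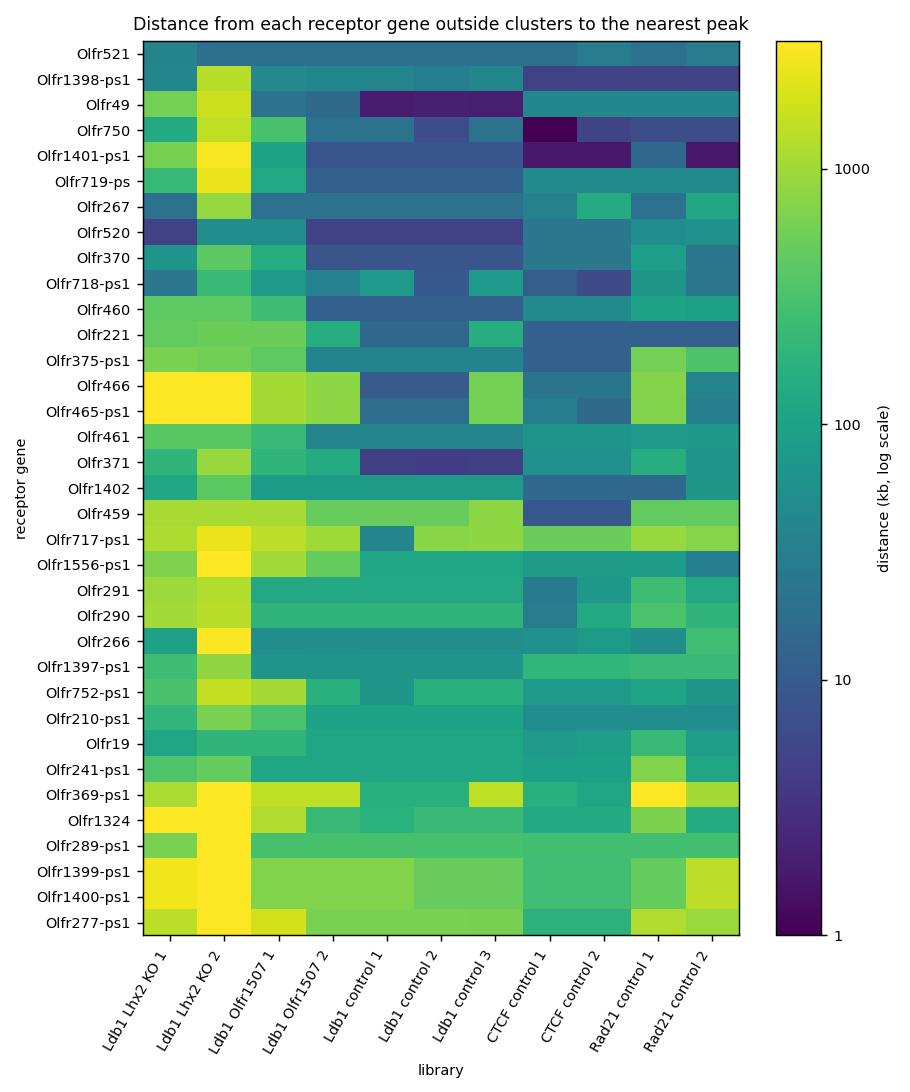
Distance from each of the 35 receptor genes outside clusters (rows) to the nearest peak of each of the 11 libraries (columns), as colour on a log scale in kb, with genes ordered by how many libraries had a peak within reach. Dark cells, meaning close peaks, were concentrated in the upper rows and in the control Ldb1, CTCF and Rad21 columns, and the 6 genes with no peak within 100 kb are the rows Olfr369-ps1, Olfr1324, Olfr289-ps1, Olfr1399-ps1, Olfr1400-ps1 and Olfr277-ps1.

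Since each library gives a value for every gene set, the sets were compared within libraries. In the 3 control Ldb1 libraries, 48.6%, 48.6% and 37.1% of the genes outside clusters had a peak within 50 kb. The mean was 44.8% ± 6.6 outside clusters and 19.9% ± 3.31 in clusters (SD, n = 3 libraries), a difference of 24.9 ± 3.59 percentage points. The difference was positive in 3 of 3 libraries. The exact two-sided sign-flip permutation test gave p = 0.25, the smallest that 3 libraries allow. The 2 CTCF libraries, at 54.3% and 45.7% outside clusters, had a mean of 50% there and 15.4% in clusters, with 81.1% and 82.6% of all protein-coding genes (difference 34.6 ± 5.04 points, SD, n = 2). Rad21, at 25.7% and 34.3% outside clusters, had a mean of 30% there and 8.26% in clusters, with 58.9% and 76.6% of all protein-coding genes (difference 21.7 ± 6.77 points). With 2 libraries no p below 0.5 is possible, so these are values without a test.

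The sign turned when the 86 first and last genes of clusters replaced the whole clusters. Genes outside clusters minus cluster ends came to -9.5 ± 1.96 points for control Ldb1 (n = 3), -4.07 ± 6.88 for CTCF and -6.63 ± 1.95 for Rad21 (SD, n = 2 each). For CTCF this is smaller than its spread between libraries. Against all protein-coding genes the differences were -18.1, -31.9 and -37.7 points. The 2 CTCF libraries differed in sign: the genes outside clusters were above the cluster ends in the first and below them in the second.

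**Figure D2:**
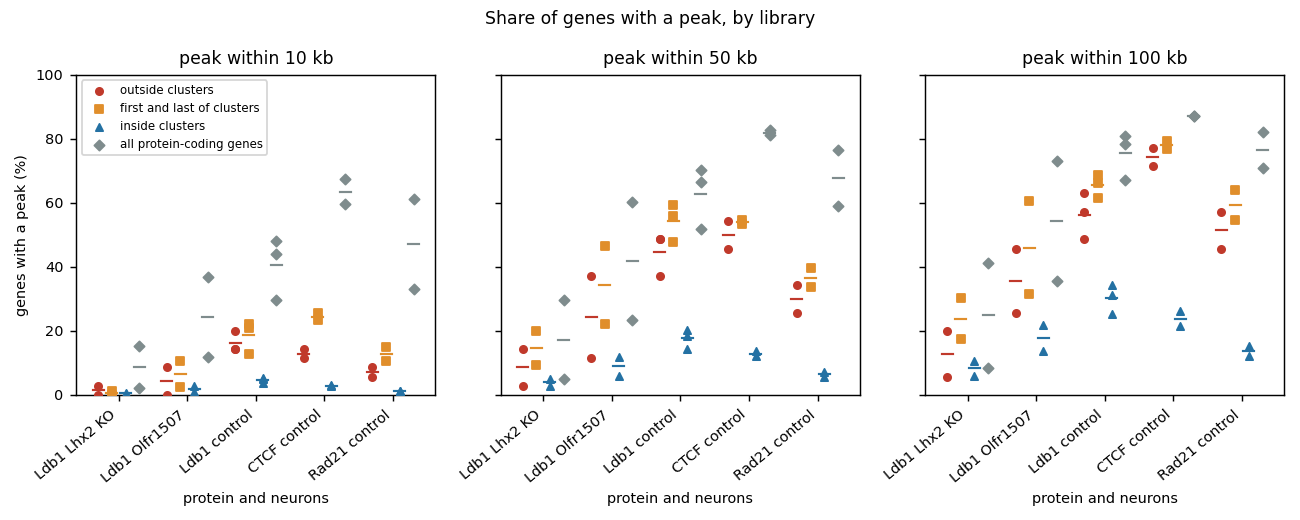
Share of genes (%) with a peak within 10, 50 and 100 kb (left to right), for each library (points) and the group mean (bars), for receptor genes outside clusters, first and last genes of clusters, genes inside clusters without those ends, and all protein-coding genes. At 50 kb the control Ldb1 points outside clusters lay between 37.1% and 48.6%.

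The share moved with the number of neighbouring genes. Outside clusters, a control Ldb1 region lay within 50 kb of 1 of 8 genes with no other protein-coding gene within 100 kb, of 7 of 16 genes with 1 to 3 such neighbours and of 8 of 11 genes with 4 or more. Inner cluster genes gave 74 of 862 (8.58%), 126 of 386 (32.6%) and 31 of 58 (53.4%) for the same classes, and cluster ends 1 of 8, 25 of 48 and 20 of 30. CTCF gave 2 of 8, 6 of 16 and 8 of 11 outside clusters, against 1.28%, 23.1% and 60.3% of inner genes. Cluster ends stood at 25%, 41.7% and 66.7% for CTCF. Rad21 gave 0 of 8, 3 of 16 and 3 of 11 outside clusters, against 0%, 10.4% and 20.7% of inner genes and 0%, 18.8% and 43.3% of cluster ends. The comparison within libraries was repeated among genes with at least 1 such neighbour (27 genes outside clusters and 522 in clusters). The difference from clustered genes was then 14 points for control Ldb1, 22.9 for CTCF and 16.7 for Rad21. For Rad21, with SD 9.93 (n = 2), it moved by less than the spread between libraries. The part of gene density in these differences was not tested further.

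Coding receptor genes and pseudogenes were also counted apart, with no test. A control Ldb1 region lay within 50 kb of 11 of 18 protein-coding genes outside clusters and of 5 of 17 pseudogenes, and a CTCF region near 10 of 18 and 6 of 17. For Rad21 these counts were 3 of 18 and 3 of 17. In clusters the shares of coding genes and pseudogenes were 21.1% and 15.7% for Ldb1, 13% and 11.7% for CTCF, and 5.77% and 3.67% for Rad21. Cluster ends, with 76 coding genes and 10 pseudogenes, had the other order for Ldb1, at 51.3% and 70%. They stood at 48.7% and 50% for CTCF, and at 26.3% and 20% for Rad21. Pairs share their surroundings, so their genes are not separate observations: 6 of 10 genes in pairs had a control Ldb1 region within 50 kb, against 10 of 25 single genes, and 3 of the regions lay within 50 kb of both genes of a pair.

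**Figure D3:**
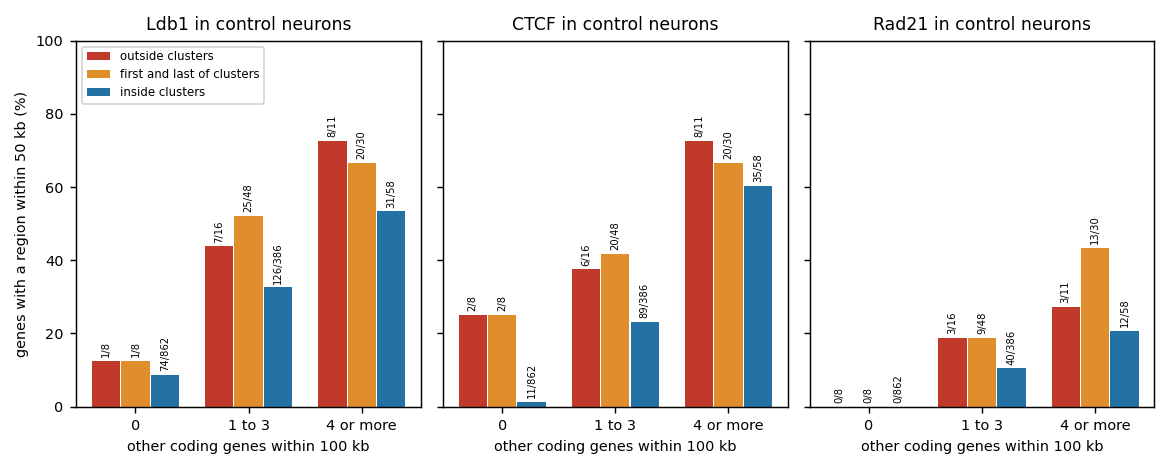
Share of receptor genes (%) with a control Ldb1, CTCF or Rad21 region within 50 kb, by the number of other protein-coding genes within 100 kb. Bars start at 0 and are labelled with counts. For Ldb1 the bars outside clusters stand at 1 of 8, 7 of 16 and 8 of 11 genes.

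Around single genes the pattern of peaks differed widely. The closest control Ldb1 region of all was upstream of Olfr49, a protein-coding receptor gene at chr14:54281896-54282925 on the minus strand, next to Abhd4, a lipid hydrolase gene. Its nearest control Ldb1 peaks lay 1.9, 2.04 and 1.96 kb away in the 3 libraries, whereas the nearest peaks lay at 594 and 1734 kb in Lhx2 KO and at 21.2 and 16.1 kb in Olfr1507 cells. Olfr49 had 5 control Ldb1 regions within 50 kb in all. The one at 1.9 kb had no peak in the Lhx2 KO, Olfr1507, CTCF or Rad21 lists. The region at 21.2 kb, with a score rank percentile of 89.4 among all control Ldb1 regions, was found in all 3 control and both Olfr1507 libraries. The nearest CTCF peak was 42.5 kb away in both libraries, inside Dad1, with Rad21 at 42.6 and 42.5 kb. The score is the authors' value for each peak and was used here only to rank peaks within a list, a higher percentile being stronger.

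Olfr371, a protein-coding single gene at chr8:85230497-85231435 on the plus strand, had the next closest region. Its control Ldb1 peaks were 4.57, 4.53 and 4.59 kb upstream, and the nearest Ldb1 peaks elsewhere were at 196 and 913 kb in Lhx2 KO and at 196 and 144 kb in Olfr1507 cells. As at Olfr49, this close region was found in the control lists alone. Olfr370, a single gene 1688 kb away on the same chromosome, had control Ldb1 peaks 8.27, 8.36 and 8.32 kb downstream. The second Olfr1507 library had this peak at 8.29 kb and the first had none nearer than 150 kb, while Lhx2 KO peaks were at 65.8 and 413 kb.

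The pair Olfr520 and Olfr521 on chromosome 7 (chr7:99735145-99736095 and chr7:99767164-99768130, both on the plus strand, 31.1 kb apart) were the only genes outside clusters with a peak of all 11 libraries within 100 kb. Upstream of Olfr520, Ldb1 peaks lay 4.9 kb away in Lhx2 KO replicate 1, 4.83 kb away in Olfr1507 replicate 2, and 4.86, 4.89 and 4.96 kb away in the controls. Lhx2 KO replicate 2 and Olfr1507 replicate 1 had their nearest peak at 51.8 kb, downstream. That is a second region, 19.8 kb downstream of Olfr521, and among the strongest near any gene outside clusters (chr7:99787917-99788260, rank percentile 99.1). It was found in Lhx2 KO replicate 2, both Olfr1507 and all 3 control libraries, and in CTCF replicate 1 and Rad21 replicate 1, but not in the second libraries of CTCF and Rad21. The 2 Lhx2 KO libraries thus held different regions of this pair, and a region of both was found near neither gene.

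The RefSeq promoter table (GRCm38.p6, 250 bases before and 50 after the annotated start) held 17 of the 35 genes, all protein-coding. No peak of any library overlapped these windows. They were searched on both strands for TAATTA and TAATGA, core letters that LIM-homeodomain factors bind, and for the Ebf palindrome (TCCC and GGGA with 2 free bases between them). TAATTA was found in 3 of 17 windows outside clusters (17.6%), 18.7% of 927 windows of clustered genes and 5.31% of 27025 windows in the table. TAATGA was found in 2 of 17 (11.8%), 29% and 9.99%, and the Ebf palindrome in 0 of 17, 0.539% and 0.914%. For 14 of the 17 genes the annotated start was the ATG of a start codon, so that such a window may not reach the start of transcription. The windows below are those of the 3 genes with the closest control Ldb1 regions upstream, Olfr49 (chr14:54282876-54283175 on the minus strand), Olfr371 (chr8:85230247-85230546 on the plus strand) and Olfr520 (chr7:99734895-99735194 on the plus strand), and that of Olfr461 (chr6:40544928-40545227 on the minus strand), which holds TAATTA and whose nearest control Ldb1 region is 39.3 kb away. They read 5′ to 3′ along the gene's strand, and capitals mark the motif matches, TCATTA being TAATGA on the other strand.
Olfr49: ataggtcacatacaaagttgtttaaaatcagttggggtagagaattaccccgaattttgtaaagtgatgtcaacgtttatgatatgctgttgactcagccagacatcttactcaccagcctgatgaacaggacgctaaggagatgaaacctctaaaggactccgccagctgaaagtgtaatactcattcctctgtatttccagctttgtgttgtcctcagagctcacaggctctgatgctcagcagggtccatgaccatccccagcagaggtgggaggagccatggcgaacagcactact
Olfr371: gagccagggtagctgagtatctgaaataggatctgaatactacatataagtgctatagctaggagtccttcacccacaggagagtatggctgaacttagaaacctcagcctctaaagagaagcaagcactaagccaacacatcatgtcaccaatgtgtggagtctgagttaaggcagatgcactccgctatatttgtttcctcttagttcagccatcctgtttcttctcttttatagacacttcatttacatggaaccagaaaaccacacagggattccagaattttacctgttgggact
Olfr520: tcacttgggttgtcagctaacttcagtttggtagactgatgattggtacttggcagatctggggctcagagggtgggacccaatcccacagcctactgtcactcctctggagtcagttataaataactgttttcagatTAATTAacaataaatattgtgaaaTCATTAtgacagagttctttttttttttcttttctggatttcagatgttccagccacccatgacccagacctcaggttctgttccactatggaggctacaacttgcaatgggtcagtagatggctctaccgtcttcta
Olfr461: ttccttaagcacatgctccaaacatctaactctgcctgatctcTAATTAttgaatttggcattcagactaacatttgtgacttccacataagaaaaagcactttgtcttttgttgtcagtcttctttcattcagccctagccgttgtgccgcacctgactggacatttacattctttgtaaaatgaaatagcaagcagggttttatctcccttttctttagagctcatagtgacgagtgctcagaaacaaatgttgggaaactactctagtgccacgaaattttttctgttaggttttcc
The genes with the 2 closest upstream regions, Olfr49 and Olfr371, held none of the 3 motifs in this window. Olfr520 was the sole gene of the 17 with both TAATTA and TAATGA. A match is a run of letters and says nothing of binding.

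Of the control Ldb1 regions within 50 kb of genes outside clusters, the strongest lay 20.5 kb downstream of Olfr267 (region chr4:58763947-58764303, rank percentile 99.4). Olfr267 is a single protein-coding gene at chr4:58784779-58785720 on the minus strand. The nearest other gene to the region was Ecpas, a proteasome adaptor gene, 32.9 kb away. The peak nearest to Olfr267 lay at 20.6 kb in Lhx2 KO replicate 1 and at 885 kb in replicate 2. It lay at 20.6 and 20.5 kb in Olfr1507 cells and at 20.5 kb in each control library (percentiles 99.5, 99.4 and 99). Rad21 replicate 1 had a peak there too, Rad21 replicate 2 had none nearer than 127 kb, and no CTCF peak overlapped it. Of the 23 control Ldb1 regions within 50 kb of genes outside clusters, it and a region 47 kb from Olfr1398-ps1 were those with a Rad21 peak and no CTCF peak.

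Some of the genes outside clusters had CTCF peaks closer than any Ldb1 peak. Olfr750, at chr14:51070311-51071442 on the minus strand among ribonuclease genes (10 other coding genes within 100 kb), had CTCF peaks at 0.325 and 5.22 kb and Rad21 peaks at 6.73 and 6.68 kb, all downstream. The peak at 0.325 kb was found in CTCF replicate 1 alone, with rank percentile 9.43 in that list. CTCF regions of both libraries lay 5.18 and 6.62 kb from Olfr750, the latter with rank percentile 97.2 among CTCF regions. Ldb1 peaks nearest to Olfr750 lay at 139 and 1477 kb in Lhx2 KO, at 311 and 20.6 kb in Olfr1507 cells, and at 20.6, 6.71 and 20.6 kb in controls. The pseudogene Olfr1398-ps1 (chr3:52236838-52237749), near Foxo1, a forkhead factor gene, had 6 CTCF and 5 Rad21 regions within 50 kb, the nearest at 4.73 and 4.74 kb. A region 40.2 kb from it carried peaks of Lhx2 KO replicate 1, Olfr1507 replicate 2 and all 7 control libraries of Ldb1, CTCF and Rad21. Olfr221, near Zfp219, had CTCF and Rad21 peaks at 11.9 kb in all 4 libraries, and its Ldb1 region at 15.2 kb was found in 2 of 3 control libraries.

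The remaining genes with a region within 10 kb were a pseudogene and a coding gene. The pseudogene Olfr1401-ps1 (chr5:75141349-75141558) lay 9.76 kb from Pdgfra, a growth factor receptor gene. Its control Ldb1 peaks at 8.57, 8.58 and 8.57 kb formed a region 0.852 kb from Pdgfra, with a peak at 8.56 kb in Olfr1507 replicate 2. Lhx2 KO had none nearer than 606 kb and 2923 kb. CTCF peaks lay at 1.71 and 1.7 kb. Olfr459, at chr6:41771353-41772297, had CTCF peaks at 9.29 and 9.33 kb and was otherwise far from peaks, with control Ldb1 at 492, 492 and 804 kb and Rad21 at 455 kb in both libraries.

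**Figure D4:**
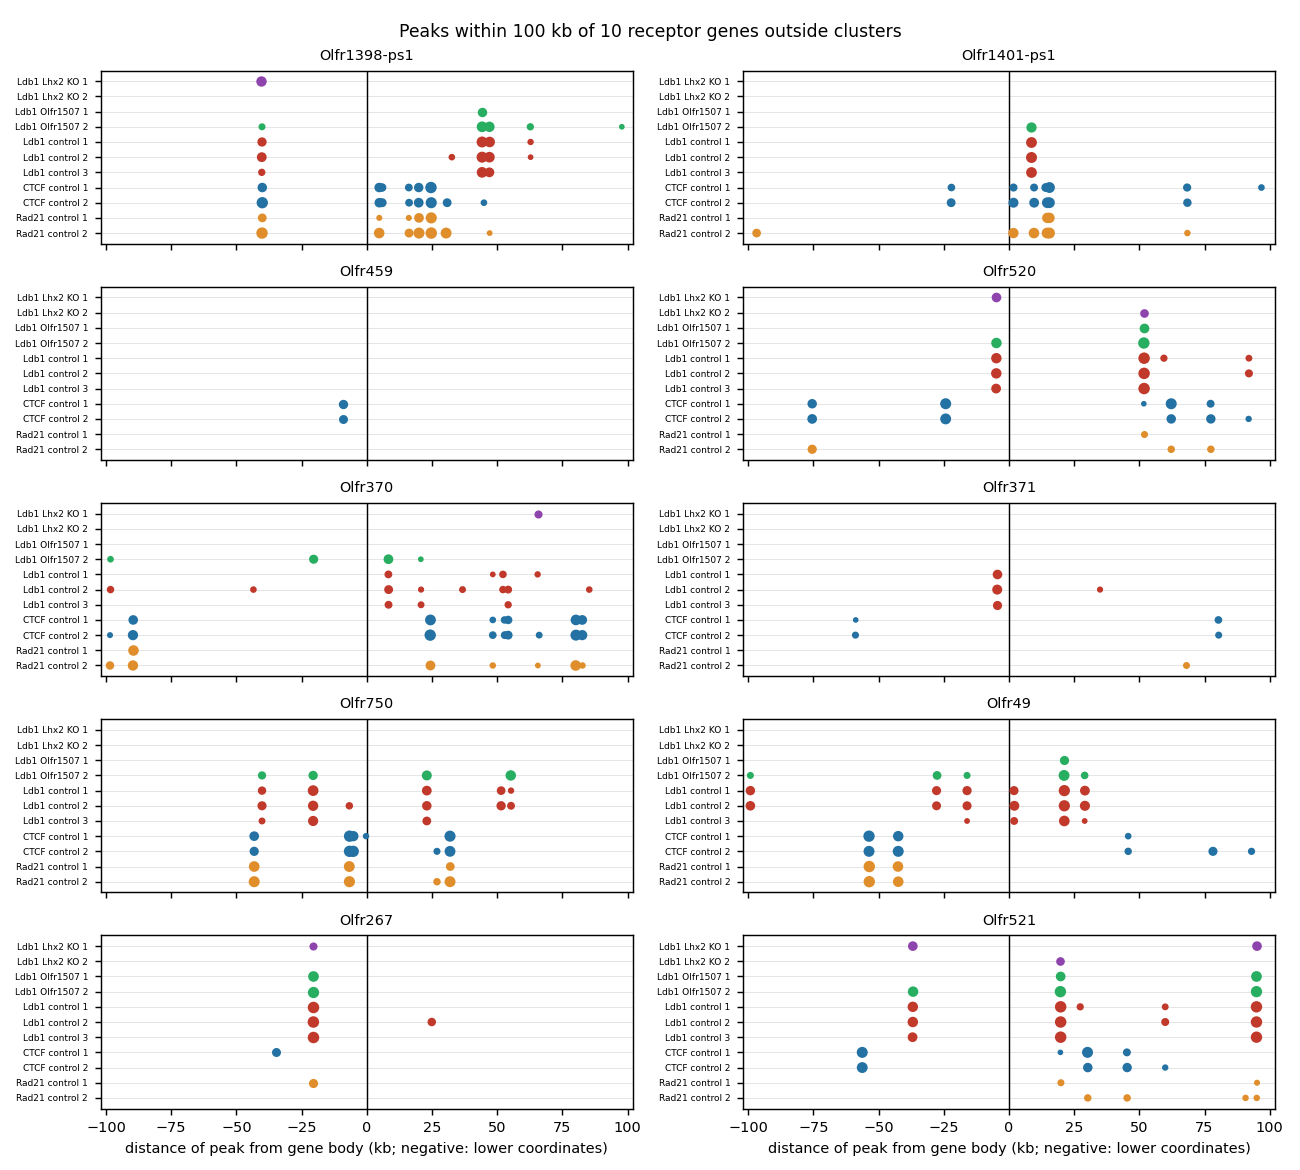
Peaks of the 11 libraries (rows) within 100 kb of 10 receptor genes outside clusters, by distance from the gene body in kb, negative toward lower coordinates. Point size follows the percentile of the score within its list. Olfr49 has control Ldb1 points between 1.9 and 2.04 kb, and Olfr459 shows CTCF points at -9.29 and -9.33 kb and no other.

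The 6 genes with no peak of any library within 100 kb were 5 pseudogenes and the coding gene Olfr1324 on chromosome X. The pair Olfr1399-ps1 and Olfr1400-ps1 on chromosome 12, 1.03 kb apart, had their nearest control Ldb1 peaks between 485 and 688 kb and their nearest CTCF peaks at 264 and 266 kb. For Olfr1324 the nearest Ldb1 peaks were 13766 and 33441 kb away in Lhx2 KO, 1205 and 229 kb in Olfr1507 cells, and 173, 229 and 229 kb in controls. Olfr289-ps1 had all 3 control and both Olfr1507 peaks at 306 kb and CTCF and Rad21 peaks at 276 kb. Olfr277-ps1, within the span of the growth factor gene Fgf14, had CTCF peaks at 177 kb and control Ldb1 peaks no nearer than 602 kb. Olfr369-ps1 had CTCF peaks at 167 and 114 kb. Of these 6 genes, 4 had no other protein-coding gene within 100 kb and the other two had 1 each.

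The remaining genes with a control Ldb1 region within 50 kb included both genes of the pair Olfr460 and Olfr461 on chromosome 6, which shared a region 11.8 and 39.3 kb away inside Clec5a, a lectin gene of myeloid cells. The pair Olfr465-ps1 and Olfr466 on chromosome 13 shared a region at 18 and 10.1 kb that was found in 2 of 3 control libraries and in no other list. Olfr719-ps, a pseudogene within the span of Hfm1, a meiotic helicase gene, had a region at 12.3 kb, and Olfr375-ps1 had 1 at 37.4 kb. The 3 regions of Olfr460, Olfr719-ps and Olfr375-ps1 were found in all control libraries and in Olfr1507 replicate 2, and in neither Lhx2 KO library.

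In all, 23 control Ldb1 regions lay within 50 kb of the genes outside clusters. Their median rank percentile was 55.4, against 59.7 for the 118 regions near clustered genes. In the strongest 10% of all control Ldb1 regions were 2 of the 23 (8.7%), those near Olfr267 and Olfr521, and 27 of the 118 (22.9%). Ranks of regions outside clusters were thus spread much as those of control Ldb1 regions anywhere, of which 10% are there by construction. A CTCF peak overlapped 3 of the 23 in the first CTCF library and 2 in the second (13% and 8.7%), against 4.75% and 9.21% of all 22787 control Ldb1 regions. A Rad21 peak overlapped 3 and 2 of the 23 (13% and 8.7%), against 4.32% and 23.3% of all.

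The Lhx2 KO asks whether Ldb1 is found at the same places without this DNA-binding partner. An Ldb1 peak lay within 50 kb of 14.3% and 2.86% of the genes outside clusters in the 2 Lhx2 KO libraries, and of 48.6%, 48.6% and 37.1% in the 3 control libraries. The groups did not overlap, nor did they for all protein-coding genes, at 29.7% and 4.88% in Lhx2 KO and 66.6%, 70.3% and 51.7% in controls. The means were 8.57% ± 8.08 in Lhx2 KO (SD, n = 2) and 44.8% ± 6.6 in controls (SD, n = 3), a difference of -36.2 points with p = 0.1 by exact two-sided permutation of the libraries, the smallest p that 2 against 3 allow. At 10 kb the difference was -14.8 and at 100 kb -43.3 points, each also with exact permutation p = 0.1, against -31.7 and -50.5 points for all protein-coding genes. The difference at 50 kb was -15.2 points for clustered genes, -39.7 for cluster ends and -45.6 for all protein-coding genes, of the same sign in each set. Their differences from each other were not tested. A Lhx2 KO region, found in both libraries, lay within 10, 50 or 100 kb of 0 of the 35 genes. The shares were 0.287%, 3.02% and 6.03% of clustered genes, 0%, 8.14% and 15.1% of cluster ends and 1.55%, 3.62% and 6.35% of all protein-coding genes. A count of 0 of 35 allows a share of up to 9.89% (95% Wilson). Of these background shares only the 15.1% of cluster ends at 100 kb lies above that limit, so a share at the others was not detectable here.

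List length moved with this difference. When the control lists were cut to the 4290 strongest peaks, the length of the list of Lhx2 KO replicate 1, a peak lay within 50 kb of 5 of 35 genes (14.3%) in that KO library and also in each control library, a difference of 0. At this length the share of all protein-coding genes was 29.7% in the KO library and 21.2%, 21.1% and 20.9% in controls, and that of clustered receptor genes 5.96% in the KO library and 7.61%, 7.83% and 8.19% in controls. All protein-coding genes were thus higher in the KO library and clustered genes lower, with no test for 1 KO library. The genes outside clusters were not all the same. Olfr1398-ps1, Olfr267 and Olfr521 were found in the KO and in every control list of this length, Olfr520 and Olfr718-ps1 in the KO only, and Olfr1401-ps1 and Olfr49 in the 3 controls only. Of the 3 shared genes, Olfr267 had its peak in the same region in the KO and the controls. Near Olfr521 the KO peak was 36.9 kb upstream and the strongest control region 19.8 kb downstream, and near Olfr1398-ps1 the KO peak was 40.4 kb away on one side and the strongest control region 44.2 kb away on the other. At the length of Lhx2 KO replicate 2, 542 peaks, the KO lists held peaks near 0 and 1 gene (Olfr521), against 2 genes (Olfr267 and Olfr521) in each control, a difference of -4.29 points with exact permutation p = 0.1. All protein-coding genes stood at 4.65% and 4.88% in the KO lists and at 3.82%, 3.91% and 3.87% in controls, the opposite direction, and clustered genes at 2.08% and 3.3% in the KO lists and 2.3%, 2.59% and 2.8% in controls, which overlap. Reads per library are unknown, and less binding and a less sensitive library cannot be told apart in a shorter list.

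Among the 23 control Ldb1 regions, Lhx2 KO replicate 1 had a peak at 3 (13%) and replicate 2 at 1 (4.35%), against 12.7% and 2.17% of all control Ldb1 regions and 20.3% and 12.7% of those near clustered genes. The 3 regions of replicate 1 were those 4.86 kb from Olfr520, 20.5 kb from Olfr267 and 40.2 kb from Olfr1398-ps1, and that of replicate 2 was 19.8 kb from Olfr521. Lhx2 KO replicate 1 also had a peak at -24.4 kb from Olfr718-ps1, negative toward lower coordinates. Control replicate 2 had a peak at -24 kb there, of rank percentile 7.63. The nearest control Ldb1 peaks to this gene were at 75.7, 9.07 and 75.7 kb.

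Cells sorted for Olfr1507 express 1 clustered receptor gene, whereas the control neurons together express the family. Their 2 Ldb1 libraries had peaks within 50 kb of 11.4% and 37.1% of the genes outside clusters, against 48.6%, 48.6% and 37.1% in controls. The higher Olfr1507 library equalled the lowest control. All protein-coding genes stood at 23.3% and 60.1% in Olfr1507 cells. The means were 24.3% ± 18.2 in Olfr1507 cells and 44.8% ± 6.6 in controls, a difference of -20.5 points with exact permutation p = 0.2. It was -11.9 points at 10 kb and -20.5 at 100 kb, each with exact permutation p = 0.1, the smallest possible, against -16.2 and -21 points for all protein-coding genes. The difference at 50 kb was -9.39 points for clustered genes, -20 for cluster ends and -21.1 for all protein-coding genes. It rests on Olfr1507 replicate 1, with its list of 5095 peaks: without that library it was -7.62 points, and without replicate 2 it was -33.3.

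With all lists at 5095 peaks, 4 and 5 of the 35 genes had a peak within 50 kb in Olfr1507 cells, against 6, 5 and 6 in controls (-3.33 points, exact permutation p = 0.3). The shares at this length were 23.3% and 23.5% of all protein-coding genes in Olfr1507 cells, against 23.9%, 23.9% and 24% in controls, and 7.04% and 5.96% of clustered genes, against 8.12%, 8.12% and 8.69%. Olfr1398-ps1, Olfr267, Olfr521 and Olfr49 were in all 5 lists, Olfr520 in Olfr1507 replicate 2 alone, Olfr1401-ps1 in the 3 controls, and Olfr750 in controls 1 and 3. Regions of both Olfr1507 libraries lay within 10, 50 and 100 kb of 0, 4 and 9 genes outside clusters (11.4% and 25.7% at 50 and 100 kb), against 1.01%, 7.04% and 14.7% of clustered genes, 2.33%, 22.1% and 31.4% of cluster ends and 11.7%, 23.2% and 35.4% of all protein-coding genes. The 4 genes at 50 kb were Olfr49, Olfr1398-ps1, Olfr267 and Olfr521, and each of their regions was found in all 3 control libraries too. Both comparisons use the same 3 control libraries, so their deviations are shared.

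**Figure D5:**
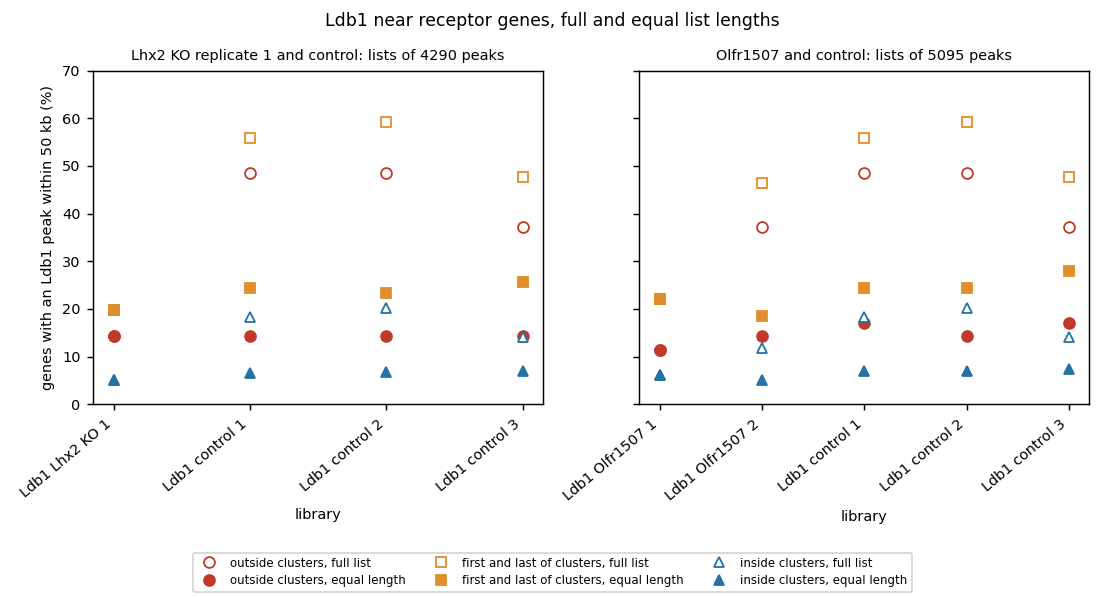
Share of receptor genes (%) with an Ldb1 peak within 50 kb in each library, with the full lists (open symbols) and with lists cut to equal length (filled symbols), for Lhx2 KO replicate 1 and controls at 4290 peaks (left) and Olfr1507 cells and controls at 5095 peaks (right). Outside clusters the filled circles stand at 14.3% in Lhx2 KO replicate 1 and in all 3 controls. A library whose own list has the common length shows the filled symbol only.

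The gap of 300 kb that defines the set left few genes near it. Just inside were Olfr221, with 313 kb to the next run, and Olfr750 with 326 kb, with control Ldb1 regions at 15.2 and 20.6 kb and CTCF regions at 11.9 and 5.18 kb, followed by Olfr1324 with 415 kb and regions at 229 and 140 kb. Just outside were Olfr15, 220 kb from the other genes of its run, with Ldb1 and CTCF regions at 57.4 and 68.8 kb, and the neighbours Olfr1358 and Olfr1357, 229 kb from the rest of a run of 10. Olfr1358 had Ldb1 and CTCF regions at 33.3 and 10.1 kb, and Olfr1357 had an Ldb1 region over the gene and CTCF at 124 kb.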

How the data were processed

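From ChIP-seq of mouse neurons 11 peak lists were used, each made by the authors from a single library; peaks were not pooled over replicates. The deposited score of each peak is a whole number set by the authors whose scaling is not given in the sources used here, so it served only to rank peaks within a list and to average ranks over the libraries of a group. The submitters' processing notes name HOMER 4.7, Bowtie2 2.3.2, cutadapt 1.9.1, SAMtools 1.3.1, STAR 2.5.3a, Picard and the build mm10, with no roles. No source used here gives peak thresholds or read numbers, so the depth behind each value is unknown.

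Gene positions came from RefSeq (GRCm38.p6), with 340 genes on scaffolds left out, 1 of them a receptor gene. Peaks on chromosomes 1 to 19 and X were kept. Peaks sharing at least 1 base were linked into regions, and a region needed 2 libraries of a group. Shares of genes with a peak were computed per library and compared over libraries by exact sign-flip or permutation tests, two-sided. Genes were not treated as replicates and got no test. Values per library are given for genes with a region within 10 kb, for those with no peak within 100 kb, and then, up to 25 genes, in order of the number of libraries with a peak within 50 kb. Of other genes, nearest neighbours are named, and Gnal, Adcy3 and Cnga2 as examples of a list. The genes and lists were chosen with earlier results of these data known. The distance search and the linking of regions were tested on simulated peaks, and the p-values and intervals were not. Python 3.11.15, pandas 2.3.3, numpy 2.4.6 and scipy 1.17.1 were used. Alternatives covered distance, list length, the gap, the gene sets, the overlap rule and leaving out libraries. Of the 28 samples, 3 inputs and 14 RNA samples were left out, among them 2 RNA samples with labels that disagree on their group.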

Additional observations from a re-analysis of the deposited data

How the results depend on the processing

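For genes outside clusters minus clustered genes at 50 kb (24.9 points for control Ldb1, 34.6 for CTCF, 21.7 for Rad21), the first and last genes of clusters as the comparison reversed the sign to -9.5, -4.07 and -6.63. The difference stayed positive but moved by more than the spread between libraries in these settings. With protein-coding genes only it was 36.4 for Ldb1 and 48.1 for CTCF. With the stronger part of each list by score (1 of every 2 peaks) it was 17.4 for Ldb1 and 14.5 for Rad21. At 10 kb it was 10.7, 8.65 and 5.28, and at 100 kb 47.1 for CTCF and 35 for Rad21. With genes that have another coding gene within 100 kb, a setting chosen after seeing the data, it was 14 for Ldb1 and 22.9 for CTCF. Leaving out 1 library gave 23.4 to 26.9, 31 to 38.1 and 16.9 to 26.5.

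The Lhx2 KO difference (-36.2 points) became 0 when the second KO library was left out and lists were cut to 4290 peaks. Leaving out 1 library gave -41.9 to -30.5 for Lhx2 KO and -33.3 to -7.62 for Olfr1507. Counting a peak of any 1 library instead of 2, genes within 50 kb numbered 5 for Lhx2 KO instead of 0, 13 for Olfr1507 instead of 4 and 14 for Rad21 instead of 6. These were 14.3%, 37.1% and 40% of the genes outside clusters. The share of clustered genes rose too, from 3.02% to 6.25%, from 7.04% to 13.9% and from 5.32% to 11%. The share of all protein-coding genes was not computed under this rule. Without 1 control Ldb1 library, also chosen after seeing the data, the control count was 13 to 16. The sign was kept in 15 of 16 settings for Lhx2 KO and in 15 of 15 for Olfr1507, but no p below 0.1 was possible in these tests. Causes were not tested.

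Whether replicate numbers pair libraries is not given by the labels. Deviations of same-numbered libraries correlated at 0.00326 and 0.0459 for Lhx2 KO and at -0.086 and 0.0716 for Olfr1507. With so few libraries of unequal list length, these values cannot decide it. A replicate block left out control Ldb1 replicate 3, which had no partner. The differences were then -40 for Lhx2 KO and -24.3 for Olfr1507. The exact sign-flip permutation test gave p = 0.5 for each, the smallest for 2 pairs. Depth is unknown, and a gene without a peak in a short list may have binding below its reach.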
